A study of Saccharomyces cerevisiae with 24 samples.

Results

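The genes described here encode 10 factors of silent chromatin and telomeres in budding yeast (*Saccharomyces cerevisiae*): *SIR1*, *SIR2*, *SIR3*, *SIR4*, *SAS2*, *SAS4*, *SAS5*, *DOT1*, *RIF1* and *RAP1*. They were taken by name, and the array annotation pairs each with 1 probe set, so that all 10 were measured among 5449 genes (5498 probe sets) that were tested. RNA was hybridised to 24 Affymetrix Yeast Genome 2.0 arrays, with 3 separate cultures of each of 8 strains, grown in minimal medium to mid-log phase. The mutants were *htz1Δ*, which lacks the histone variant H2A.Z, *swr1Δ*, *swc2Δ* and *swc5Δ*, which each lack a subunit of the SWR1 complex that puts H2A.Z into nucleosomes, and the double mutants *htz1Δ swr1Δ*, *htz1Δ swc2Δ* and *htz1Δ swc5Δ*. They were set against the wild type (WT), and the double mutants also against *htz1Δ* to ask what SWR1 without its histone variant does to transcription. All strains, WT included, are *MATa* cells of the BY4741 background with its deletions in *HIS3*, *LEU2*, *URA3* and *MET15*. The *htz1Δ* strain also carries *bar1Δ* and the *htz1Δ swc5Δ* strain also *lys2Δ*. In every comparison of *htz1Δ swc5Δ*, *lys2Δ* cannot be told apart from the other deletions that differ. Each mutant is described as 1 strain. The *swr1Δ* cultures, however, carry 3 different strain names in the sample labels.

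Silencing in this yeast covers the mating-type cassettes *HML* and *HMR*, the regions next to telomeres and the ribosomal DNA. Rap1 binds the telomere repeats and the silencers and recruits Sir4 and Sir3, while Rif1 competes with the Sir proteins for Rap1 and limits telomere length. Sir2 removes acetyl groups from the tails of neighbouring histones, which lets Sir3 and Sir4 spread, and Sir1 helps to start silencing at the mating-type silencers only. The SAS complex (Sas2, Sas4 and Sas5) does the reverse, by acetylating histone H4 in euchromatin, and Dot1 methylates histone H3 there. H2A.Z is known to be enriched in the chromatin beside silent regions, where it limits the spread of Sir proteins.

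Values are log2 expression, and a difference of 1 is a change of 2-fold. Each is a relative RNA level of a whole culture, so that fewer cells with a transcript and less transcript per cell cannot be told apart. Deposited medians of the tested probe sets lay between 9.71 and 9.77 on 15 arrays (*htz1Δ*, the double mutants and WT), but between 9.29 and 9.30 in *swr1Δ*, 10.06 and 10.10 in *swc2Δ*, and 9.97 and 9.99 in *swc5Δ*. The arrays of these 3 single mutants were therefore brought to the common distribution by rank, and every statement on them rests on that step. Comparisons came from 1 limma fit to the 24 arrays, in which every strain has its own mean, and a gene was called at an adjusted p under 0.05 at any size of change. The p-values thus measure the spread between cultures of 1 strain. Each deleted gene was low where the label says so. For *BAR1*, this was the case in *htz1Δ* (2.65 to 3.22), and in none of the 7 other strains, where its lowest value was 11.55. The 10 members were above the 95th percentile of 1746 probe sets of another yeast species on 24 of 24 arrays. Their lowest deposited value was 6.90, while that percentile lay between 3.46 and 4.09.

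Against WT, 4 of the 10 genes showed a pattern that recurred across mutants. *SAS5* and *SIR4* were lower than WT in all 7 mutants, *RAP1* was higher in all 7, and *RIF1* was higher in all except *htz1Δ*, although without the rank step the signs of *SIR4* in *swc2Δ* and *swc5Δ* and of *RAP1* in *swr1Δ* turned. *SIR2* went up in some strains and down in another. *SAS2* and *SAS4* were called in 1 mutant each, and *SIR1*, *SIR3* and *DOT1* in none by limma after rank mapping (at an unadjusted p under 0.05, *SIR3* passed in 3 of 7 mutants and *SIR1* and *DOT1* in 0). Under other scalings *SIR1*, *SIR3* and *DOT1* were each called in some mutants. No member changed by 2-fold in any comparison after rank mapping. As deposited, *SIR4* fell by 1.04 in *swr1Δ* against WT, and *SIR2* and *SIR4* also differed by over 2-fold in some comparisons of other mutants with *swr1Δ*. Across the 7 mutants the largest changes after mapping were those of *RIF1* in *swr1Δ*, by 0.87, and of *SAS5* in *htz1Δ swc5Δ*, which fell by 0.86. The 7 comparisons share the 3 WT arrays.

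These counts are read against how common changes were. In *htz1Δ*, 5 of 10 members were called, *SIR2*, *SAS4* and *RAP1* higher and *SIR4* and *SAS5* lower, and 51.1% of all tested probe sets were called (24.2% higher and 26.9% lower). In *swr1Δ* 6 members were called, against 32.3% of all probe sets, in *swc2Δ* 5 against 33.2%, and in *swc5Δ* 4 against 33%. The double mutants each had 4 members called, with 28.9% of all probe sets in *htz1Δ swr1Δ*, 31.3% in *htz1Δ swc2Δ* and 36.6% in *htz1Δ swc5Δ*. With 10 members, a share of 4 or 5 in 10 is near these background shares and is no result about the list. The 6 of 10 in *swr1Δ* lie above the background by more, which is a description and not a test. The median change of the members was 0.02 in *htz1Δ*, 0.03 in *swr1Δ*, 0.10 in *swc2Δ* and 0.03 in *swc5Δ*. It was -0.06 in *htz1Δ swr1Δ*, 0.19 in *htz1Δ swc2Δ* and 0.15 in *htz1Δ swc5Δ*, while the median of all probe sets lay between -0.04 and 0.01 in the 7 comparisons.

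**Figure D1:**
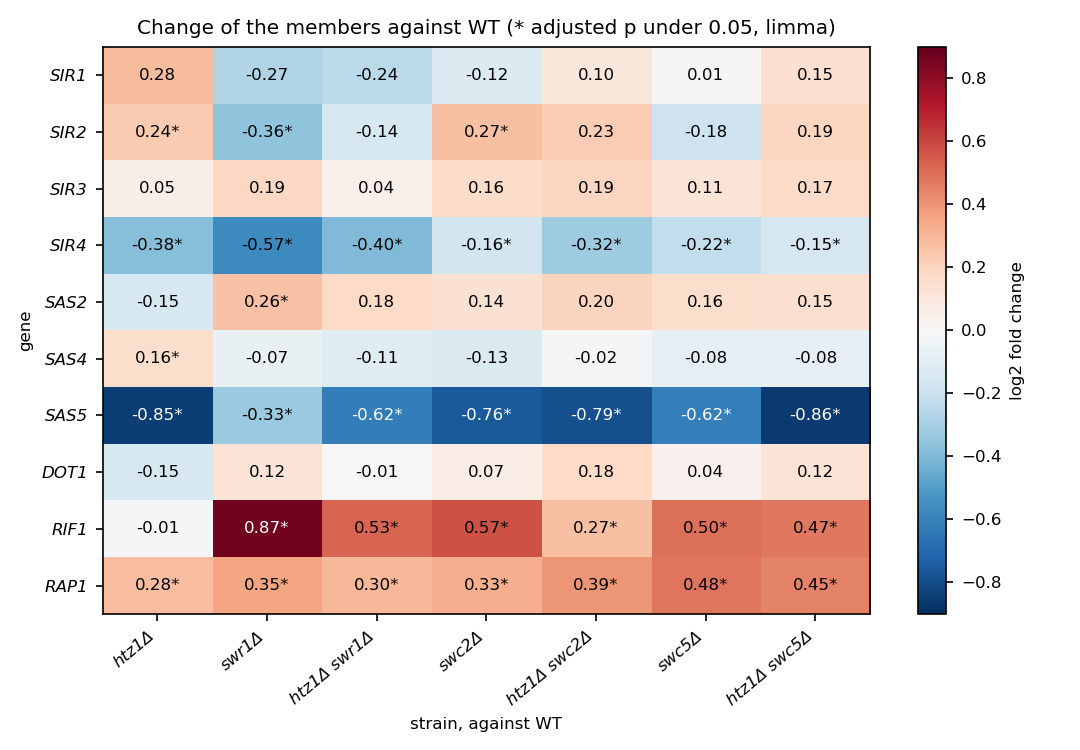
Log2 fold change of each member (down the page) in each of the 7 mutants (across) against WT, from limma fits with 3 cultures per strain; an asterisk marks an adjusted p under 0.05. *SAS5* and *SIR4* are blue (lower) and *RAP1* red (higher) in all 7 columns, whereas *RIF1* is red in 6 columns and near 0 in *htz1Δ*; on the values as deposited *SIR4* turns in *swc2Δ* and *swc5Δ* and *RAP1* in *swr1Δ*.

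The plot of the members among all probe sets places these changes. The fall of *SAS5* in *htz1Δ* was exceeded, in the same direction, by 4.97% of all tested probe sets, and that in *htz1Δ swc5Δ* by 2.4%. The rise of *RIF1* in *swr1Δ* was exceeded by 1.31%. By contrast, the rise of *RAP1* in *htz1Δ* was exceeded by 20.8%, since changes of that size were frequent in this strain.

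**Figure D2:**
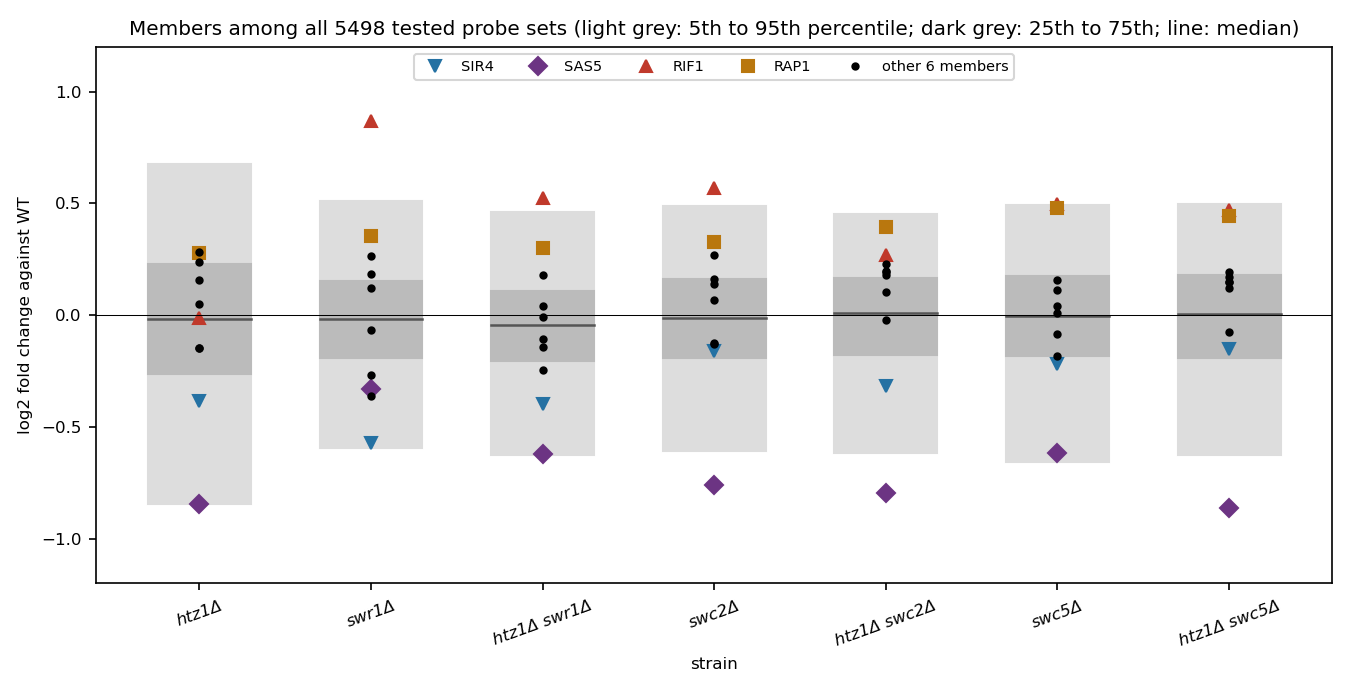
Log2 fold change against WT (vertical axis) in each mutant, with the 5th to 95th and 25th to 75th percentiles of all 5498 tested probe sets as light and dark grey boxes, their median as a line, and the 10 members as points. *SAS5* (diamonds) lies at or below the 5th percentile in *htz1Δ*, *swc2Δ*, *htz1Δ swc2Δ* and *htz1Δ swc5Δ*, and *RIF1* (triangles) lies above the 95th in *swr1Δ*, *swc2Δ*, *swc5Δ* and *htz1Δ swr1Δ*.

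Among the SIR genes, *SIR4*, which encodes the scaffold that links Sir2 and Sir3 to Rap1, was lower in every mutant. Its values were 9.66, 9.70 and 9.56 in *htz1Δ*, against 10.05, 9.93 and 10.09 in WT. In *swr1Δ* they were 9.48, 9.41 and 9.46, the lowest of all strains. Of 21 mutant arrays, 20 lay below all 3 WT arrays, and the exception was 1 *htz1Δ swc5Δ* array at 9.94. *SIR4* fell by 0.38 (SE 0.05, adjusted p = 1.6e-05, limma) in *htz1Δ*, by 0.57 (adjusted p = 2.5e-07) in *swr1Δ* and by 0.16 (adjusted p = 0.027) in *swc2Δ*. In *swc5Δ* it fell by 0.22 (adjusted p = 0.0044). The double mutants had falls of similar order, by 0.40 in *htz1Δ swr1Δ*, 0.32 in *htz1Δ swc2Δ* and 0.15 in *htz1Δ swc5Δ* (adjusted p = 1.9e-05, 0.00025 and 0.037). The 2 smallest of these changes are not firm. The call in *swc2Δ* and that in *htz1Δ swc5Δ* were each lost without WT 1 or WT 3, the first also without *swc2Δ* 1 or 3 (highest adjusted p = 0.12) and the second without *htz1Δ swc5Δ* 1 or 2 (highest adjusted p = 0.15). With the 15 unmapped arrays alone, the call in *htz1Δ swc5Δ* was also lost (adjusted p = 0.07). On the values as deposited, *SIR4* was 0.17 higher in *swc2Δ* than in WT and was not called in *swc5Δ* (0.019).

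*SIR2*, the NAD-dependent deacetylase of the complex, was higher in the strains that lack Swc2 than in those that lack Swr1, with and without H2A.Z. Its values were 9.94, 9.88 and 9.89 in *swc2Δ*, against 9.29, 9.24 and 9.29 in *swr1Δ*, and WT lay between them at 9.63, 9.53 and 9.73. The ranges of the 3 strains did not overlap. *SIR2* rose by 0.27 in *swc2Δ* (95% interval 0.09 to 0.45, adjusted p = 0.021) and fell by 0.36 in *swr1Δ* (-0.54 to -0.18, adjusted p = 0.0036) relative to WT. The direct comparison of *swc2Δ* with *swr1Δ* gave 0.63 (0.45 to 0.81, adjusted p = 6.4e-05), a difference of 1.55-fold. This comparison, like the others between SWR1-subunit mutants, was added after the data had been seen. In *htz1Δ*, *SIR2* was at 9.98, 9.82 and 9.81, above every WT array, and rose by 0.24 (adjusted p = 0.028). The rises in *htz1Δ* and *swc2Δ* depended on single arrays. The call in *htz1Δ* was lost without WT 1, WT 2 or *htz1Δ* 1 (highest adjusted p = 0.12) and the one in *swc2Δ* without WT 2 or *swc2Δ* 1 (highest adjusted p = 0.10). The fall in *swr1Δ* held without each array in turn. As deposited, the fall in *swr1Δ* was 0.83 and the difference between *swc2Δ* and *swr1Δ* 1.44.

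Among the double mutants, which are at their deposited values, *SIR2* was also higher without Swc2 than without Swr1. *SIR2* was at 9.88, 9.90 and 9.80 in *htz1Δ swc2Δ* and at 9.97, 9.78 and 9.73 in *htz1Δ swc5Δ*, against 9.53, 9.45 and 9.49 in *htz1Δ swr1Δ*. The ranges of *htz1Δ swc2Δ* and *htz1Δ swc5Δ* did not overlap with that of *htz1Δ swr1Δ*. Against WT, however, *SIR2* in *htz1Δ swr1Δ* was at -0.14 with overlapping ranges and was not called (adjusted p = 0.24). The differences from *htz1Δ swr1Δ* were 0.37 in *htz1Δ swc2Δ* (adjusted p = 0.0052) and 0.33 in *htz1Δ swc5Δ* (adjusted p = 0.013, lost without *htz1Δ swc5Δ* 1 at 0.069). In *swc5Δ* alone the 3 cultures were spread over 9.65, 9.21 and 9.48, and the change against WT, -0.18 (-0.37 to -0.0033), was not called (adjusted p = 0.11), nor was that against *swr1Δ* (0.18, adjusted p = 0.16).

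*SIR3*, whose product binds deacetylated nucleosomes, was the steadiest of the SIR genes after rank mapping. Its strain means spanned 0.19, against a median SD of 0.08 between cultures, and WT had the lowest mean. The changes against WT lay between 0.04 in *htz1Δ swr1Δ* and 0.19 in *htz1Δ swc2Δ*, and none was called. As deposited, *SIR3* was called in *swr1Δ* (-0.29), *swc2Δ* (0.49) and *swc5Δ* (0.30; adjusted p = 0.0058, 8.9e-05 and 0.0072). With quantile normalisation it was called in *htz1Δ swc2Δ* (0.21, adjusted p = 0.048). *SIR1* was measured with the largest spread between cultures of all members (median SD 0.16). Its values were 8.01, 8.27 and 7.99 in *htz1Δ*, 7.41, 7.66 and 7.55 in *swr1Δ*, and 7.68, 7.80 and 7.93 in WT. All *htz1Δ* arrays were above and all *swr1Δ* arrays below those of WT, but with changes of 0.28 (-0.01 to 0.58) and -0.27 (-0.56 to 0.03) neither was called (adjusted p = 0.10 and 0.16). The first was called with quantile normalisation (0.33, adjusted p = 0.044) and the second as deposited (-0.77, adjusted p = 0.00029). Culture 2 was the highest of its strain for *SIR1* in 6 of 8 strains.

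Of the SAS genes, *SAS5* changed most. Its values were 8.64, 8.82 and 8.62 in *htz1Δ*, 8.96, 8.89 and 8.89 in *htz1Δ swr1Δ*, and 8.63, 8.60 and 8.79 in *htz1Δ swc5Δ*, against 9.49, 9.57 and 9.55 in WT. All 21 mutant arrays (8.58 to 9.30) lay below the lowest WT array, as for 8.09% of all probe sets. *SAS5* fell by 0.85 in *htz1Δ* (SE 0.10, adjusted p = 1.5e-06), a level 1.8-fold lower than in WT. In the double mutants it fell by 0.62 with *swr1Δ* (adjusted p = 8.4e-05), 0.79 with *swc2Δ* (adjusted p = 9.1e-06) and 0.86 with *swc5Δ* (adjusted p = 3.2e-06), and these calls held without each array in turn. The single mutants differed among themselves. *SAS5* fell by 0.76 in *swc2Δ* (adjusted p = 1.3e-05) and by 0.62 in *swc5Δ* (adjusted p = 9.8e-05), but by 0.33 in *swr1Δ* (adjusted p = 0.014), where the call was lost without *swr1Δ* 2 (adjusted p = 0.081). Set against *swr1Δ*, *SAS5* was lower by 0.43 in *swc2Δ* (adjusted p = 0.0042) and by 0.29 in *swc5Δ* (adjusted p = 0.042), but on the values as deposited it was higher, by 0.37 and 0.40 (adjusted p = 0.0016 and 0.00091), so that no direction can be given. The second of these was lost without *swr1Δ* 1, *swr1Δ* 3, *swc5Δ* 2 or *swc5Δ* 3 (highest adjusted p = 0.15).

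*SAS2*, which encodes the catalytic subunit, and *SAS4*, which encodes a subunit it needs for activity, did not follow *SAS5*. *SAS2* was at 8.56, 8.39 and 8.49 in *htz1Δ*, against 8.59, 8.68 and 8.61 in WT. *SAS4* was at 9.43, 9.56 and 9.56 in *htz1Δ*, against 9.38, 9.35 and 9.36 in WT. *SAS2* was thus below and *SAS4* above all WT arrays, with changes of -0.15 (-0.32 to 0.03, adjusted p = 0.15) and 0.16 (0.03 to 0.28, adjusted p = 0.038). The call of *SAS4* was lost without any of 5 of the 6 arrays, *htz1Δ* 1 being the exception, and when arrays were scaled to a common median or quantile normalised (adjusted p = 0.058 and 0.054). *SAS2* rose by 0.26 in *swr1Δ* (adjusted p = 0.019), but the call was lost without WT 1, WT 3 or *swr1Δ* 3 (highest adjusted p = 0.069), and *SAS2* was 0.22 lower on the values as deposited. *DOT1*, the histone H3 methyltransferase, was at 9.06, 8.81 and 8.81 in *htz1Δ*, against 9.07, 8.94 and 9.12 in WT. The ranges overlapped, and the change of -0.15 was not called (adjusted p = 0.19). Its changes in the 6 other mutants lay between -0.01 and 0.18. As deposited, *DOT1* was called in *swr1Δ* (-0.36, adjusted p = 0.0013), *swc2Δ* (0.40, adjusted p = 0.00073) and *swc5Δ* (0.26, adjusted p = 0.02).

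*RIF1* was called higher than WT in every mutant except *htz1Δ*. Its values were 7.33, 7.19 and 7.16 in *htz1Δ*, against 7.13, 7.17 and 7.42 in WT, so that the ranges overlapped. They were 8.03, 8.14 and 8.16 in *swr1Δ*, 7.81, 7.77 and 7.85 in *swc2Δ*, and 7.59, 7.74 and 7.88 in *swc5Δ*, all above WT. The change in *htz1Δ* was -0.01 (95% interval -0.21 to 0.18, adjusted p = 0.92). *RIF1* rose by 0.87 (SE 0.09, adjusted p = 1e-06), or 1.82-fold, in *swr1Δ*, by 0.57 in *swc2Δ* (adjusted p = 0.00012) and by 0.50 in *swc5Δ* (adjusted p = 0.00045). On the values as deposited it was also called in these 3 strains, but the rise was 0.37 in *swr1Δ*, 0.90 in *swc2Δ* and 0.63 in *swc5Δ*, so that the order of the 3 rests on the rank mapping. In *htz1Δ swr1Δ* it rose by 0.53 (adjusted p = 0.00026) and in *htz1Δ swc5Δ* by 0.47 (adjusted p = 0.00071). In *htz1Δ swc2Δ* the values were 7.62, 7.59 and 7.31, which overlap with WT, and the rise of 0.27 (adjusted p = 0.033) was lost without WT 1, WT 2, *htz1Δ swc2Δ* 1 or *htz1Δ swc2Δ* 2 (highest adjusted p = 0.14).

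*RAP1*, an essential gene whose product also activates ribosomal protein and glycolytic genes, was higher on all 21 mutant arrays (10.03 to 10.36) than on every WT array (9.89, 9.59 and 9.85), as were 5.17% of all probe sets. The rise was 0.28 in *htz1Δ* (SE 0.08, adjusted p = 0.0081), 0.35 in *swr1Δ*, 0.33 in *swc2Δ* and 0.48 in *swc5Δ* (adjusted p = 0.0026, 0.0048 and 0.0002). In the double mutants it was 0.30 with *swr1Δ*, 0.39 with *swc2Δ* and 0.45 with *swc5Δ* (adjusted p = 0.0088, 0.0013 and 0.00041). WT 2 is the lowest of the WT arrays and weighed in all of these. Without it the rises in *htz1Δ* (0.19, adjusted p = 0.067) and *htz1Δ swr1Δ* (0.21, adjusted p = 0.068) were no longer called. On the values as deposited *RAP1* was 0.10 lower in *swr1Δ* than in WT and not called.

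**Figure D3:**
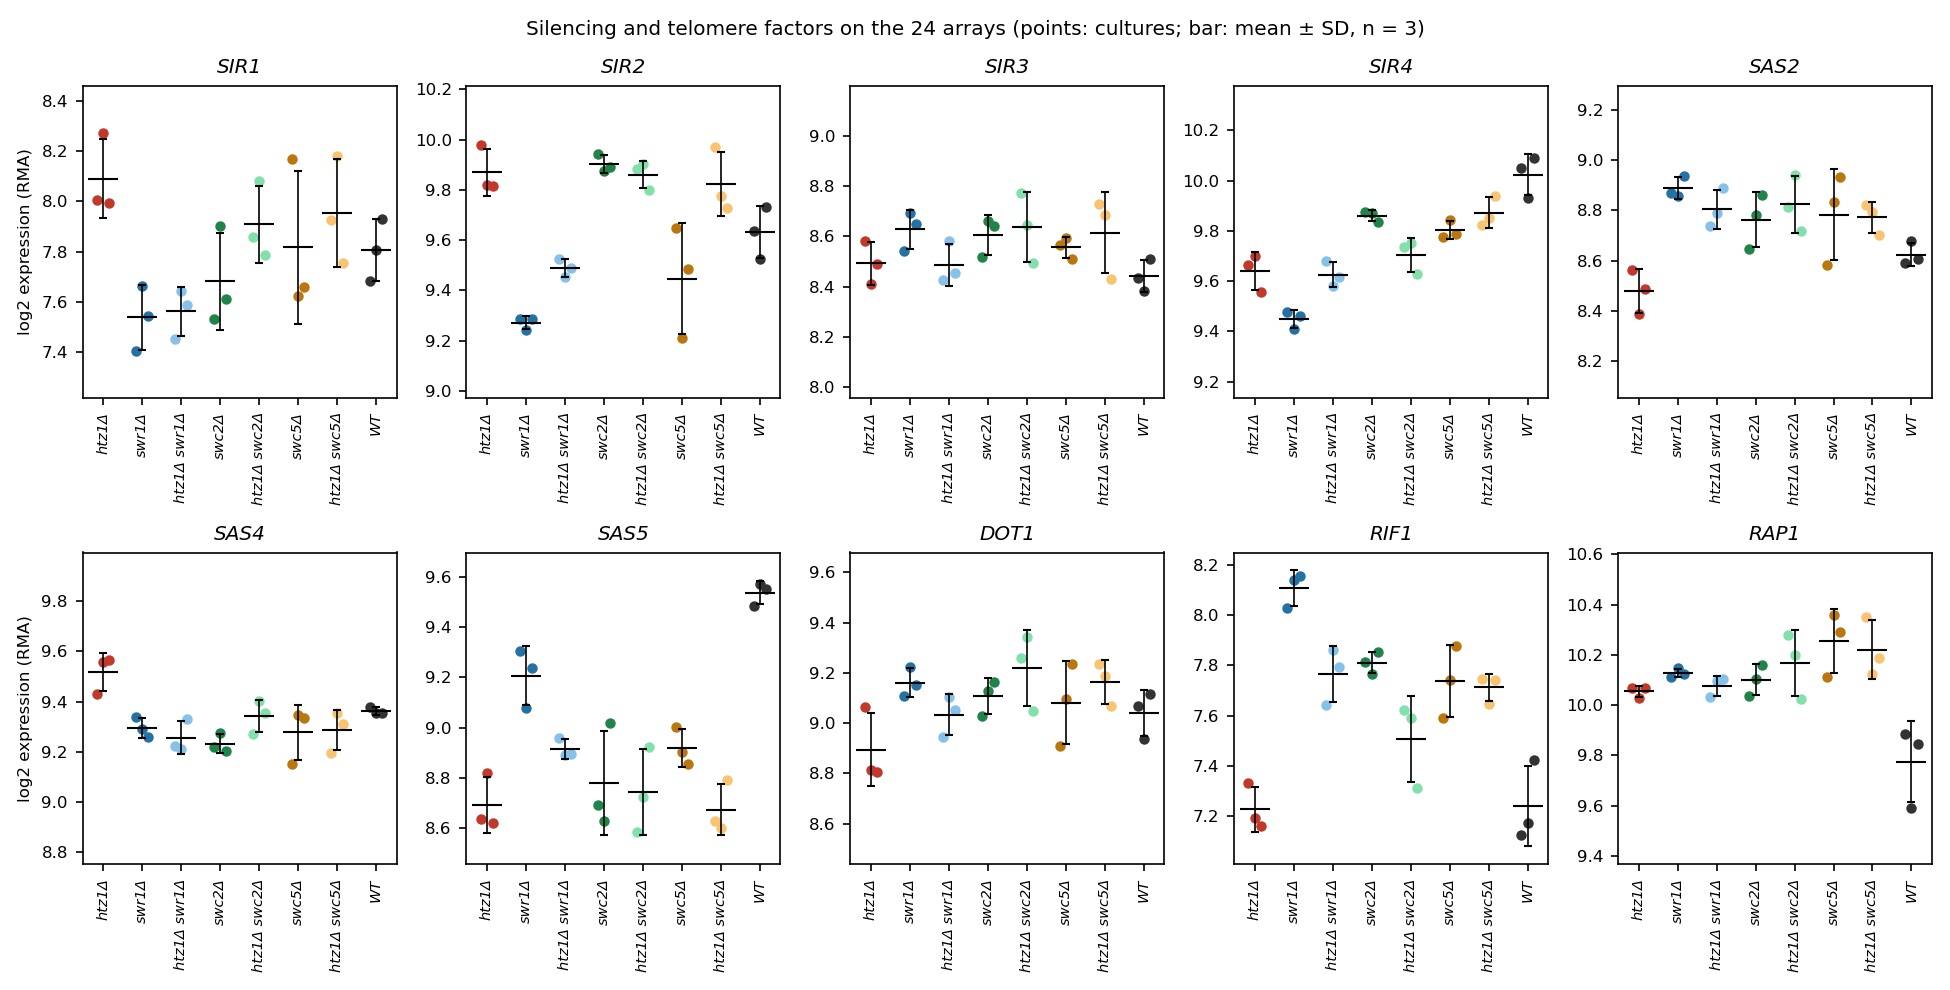
Log2 expression (vertical axes, each spanning the same range of log2 units around its gene) of the 10 members in the 8 strains, with 1 point per culture and bars for the mean and SD (n = 3). WT, at the right of each panel, is the highest strain for *SAS5* and *SIR4* and the lowest for *RAP1*, and *SIR2* is lowest in *swr1Δ*, followed by *swc5Δ* and *htz1Δ swr1Δ*.

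The comparison of each double mutant with *htz1Δ* asks what the loss of a SWR1 subunit changes in cells without H2A.Z, and all arrays in it are at their deposited values. The *htz1Δ* strain lacks *BAR1* and the double mutants do not, and the SWR1 subunit and *BAR1* cannot be told apart in these comparisons. In *htz1Δ swc5Δ* the same holds for *lys2Δ*, which *htz1Δ* does not carry. Members called were 5 in *htz1Δ swr1Δ*, 4 in *htz1Δ swc2Δ* and 5 in *htz1Δ swc5Δ*, where 38.1%, 34.9% and 32.5% of all probe sets were called. *SAS2* and *RIF1* were higher and *SAS4* was lower in all 3 double mutants.

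*RIF1* rose by 0.54 in *htz1Δ swr1Δ* (adjusted p = 0.00024), by 0.28 in *htz1Δ swc2Δ* (adjusted p = 0.025) and by 0.48 in *htz1Δ swc5Δ* (adjusted p = 0.00075) relative to *htz1Δ*. *SAS2* was at 8.74, 8.79 and 8.89 in *htz1Δ swr1Δ*, 8.81, 8.94 and 8.72 in *htz1Δ swc2Δ* and 8.82, 8.80 and 8.70 in *htz1Δ swc5Δ*, against 8.56, 8.39 and 8.49 in *htz1Δ*. All 9 double-mutant arrays were above all *htz1Δ* arrays, with rises of 0.33, 0.35 and 0.29 (adjusted p = 0.0047, 0.0034 and 0.01). *SAS4* was at 9.22, 9.21 and 9.33 in *htz1Δ swr1Δ*, 9.27, 9.40 and 9.35 in *htz1Δ swc2Δ* and 9.20, 9.35 and 9.31 in *htz1Δ swc5Δ*, against 9.43, 9.56 and 9.56 in *htz1Δ*. The ranges did not overlap with that of *htz1Δ*, and *SAS4* fell by 0.26, 0.18 and 0.23 (adjusted p = 0.0025, 0.03 and 0.007). *SAS5* did not move with them, and its differences from *htz1Δ* were 0.22 (0.02 to 0.43, adjusted p = 0.077), 0.05 (-0.15 to 0.26) and -0.02 (-0.22 to 0.19). *RAP1* was likewise not called, at 0.02, 0.11 and 0.17.

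Other members were called with only some of the deletions, and these differences from the remaining double mutants were not all past the test. *SIR1* was at 7.45, 7.64 and 7.59 in *htz1Δ swr1Δ*, against 8.01, 8.27 and 7.99 in *htz1Δ*, and fell by 0.53 (adjusted p = 0.0072), while its changes were -0.18 in *htz1Δ swc2Δ* and -0.14 in *htz1Δ swc5Δ*. Set against *htz1Δ swr1Δ* directly, *SIR1* differed by 0.35 in *htz1Δ swc2Δ* and by 0.39 in *htz1Δ swc5Δ*, and neither was called (adjusted p = 0.089 and 0.061). *SIR2* fell by 0.38 in *htz1Δ swr1Δ* (adjusted p = 0.0024), with -0.01 and -0.05 in the other two. *SIR4* rose by 0.23 in *htz1Δ swc5Δ* (adjusted p = 0.0036) and was 0.25 above *htz1Δ swr1Δ* (adjusted p = 0.005). *DOT1* rose by 0.32 in *htz1Δ swc2Δ* (adjusted p = 0.011) and by 0.27 in *htz1Δ swc5Δ* (adjusted p = 0.031).

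Several of these calls rest on few arrays. *DOT1* lost its call in *htz1Δ swc2Δ* without *htz1Δ* 2, *htz1Δ* 3 or *htz1Δ swc2Δ* 2 (highest adjusted p = 0.058), and in *htz1Δ swc5Δ* without *htz1Δ* 2 or 3 or *htz1Δ swc5Δ* 1 or 2 (0.12). In *htz1Δ swc2Δ* both *SAS4* and *RIF1* lost theirs without *htz1Δ* 2 or 3 or *htz1Δ swc2Δ* 1, *SAS4* also without *htz1Δ swc2Δ* 3 (highest adjusted p = 0.12) and *RIF1* without *htz1Δ swc2Δ* 2 (0.11), and *SAS2* lost its call in *htz1Δ swc5Δ* without *htz1Δ* 2 (adjusted p = 0.06). As a result the number of members called in *htz1Δ swc2Δ* was as low as 1, without *htz1Δ* 2 or without *htz1Δ* 3, and in *htz1Δ swc5Δ* it was 3 without *htz1Δ* 2. The 5 calls in *htz1Δ swr1Δ* all held.

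**Figure D4:**
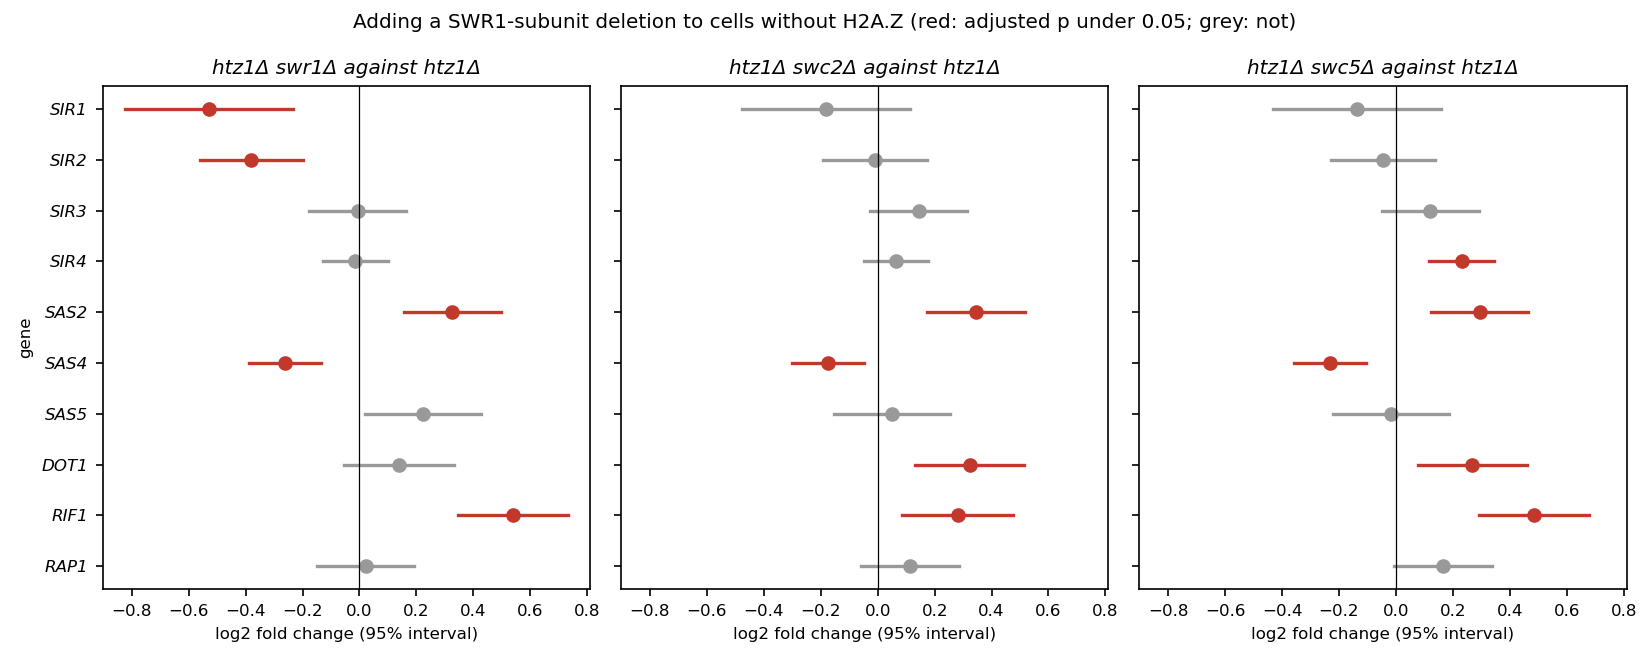
Log2 fold change with its 95% interval (horizontal axis) of each member in the double mutants against *htz1Δ* (3 cultures per strain), in red where the adjusted p was under 0.05. *SAS2* and *RIF1* are to the right of 0 and *SAS4* to the left in all 3 panels, and *SIR1* and *SIR2* are red in the *htz1Δ swr1Δ* panel only.

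The double mutants were also set against the single mutants of the same SWR1 subunit. No member was called in *htz1Δ swr1Δ* against *swr1Δ* or in *htz1Δ swc2Δ* against *swc2Δ*, where 1.24% and 0.0728% of all probe sets were called by limma. At an unadjusted p under 0.05 there were 4 and 2 members. The share of all probe sets at that threshold was not counted, so these numbers have no background. As deposited, where 85.1% and 74.7% of all probe sets were called, members were called in both, among them *SIR2* (0.69 and -0.38) and *SIR4* (0.64 and -0.49). A member that was not called is not thereby unchanged. *RIF1* was 0.34 lower in *htz1Δ swr1Δ* than in *swr1Δ* (-0.53 to -0.15, adjusted p = 0.08), with an interval wholly on the lower side. *SIR2* was the 1 member called in *htz1Δ swc5Δ* against *swc5Δ* (6.89% of all probe sets). It rose by 0.38 (0.20 to 0.56, adjusted p = 0.013), a call lost without *swc5Δ* 2 or without *htz1Δ swc5Δ* 1 (highest adjusted p = 0.083) and on the values as deposited (0.16, adjusted p = 0.14). The double mutant here also carries *lys2Δ*, which cannot be told apart from the loss of H2A.Z.

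The interaction is the change of a double mutant against its SWR1-subunit mutant, minus that of *htz1Δ* against WT. It was called for *SIR4* and *SAS5* with each of the 3 subunits. Of these strains only *htz1Δ* lacks *BAR1*, so the losses of H2A.Z and *BAR1* cannot be told apart in the interactions. With *swc5Δ*, *lys2Δ* of the double mutant enters as well. *SIR4* fell by 0.38 in *htz1Δ* against WT, but its difference between *htz1Δ swr1Δ* and *swr1Δ* was 0.18, and the interaction was 0.56 (SE 0.08, adjusted p = 3.7e-05). With *swc2Δ* and *swc5Δ* it was 0.23 (adjusted p = 0.031) and 0.45 (adjusted p = 0.0002). For *SAS5* the 3 interactions were 0.55, 0.81 and 0.60 (adjusted p = 0.0051, 0.00026 and 0.0025), and all 3 held without each array in turn. *RAP1* had interactions of -0.33 with *swr1Δ* and -0.32 with *swc5Δ* (adjusted p = 0.034 and 0.04), which were lost on leaving out any of 9 and of 8 of the 12 arrays, WT 2 among them in both (highest adjusted p = 0.11 and 0.13). The first was also lost when arrays were centred on their medians (-0.30, adjusted p = 0.055), and on deposited values it was 0.12 and not called. The members called were 3, 2 and 3 with *swr1Δ*, *swc2Δ* and *swc5Δ*, against 32.8%, 32% and 35.2% of all probe sets. The interaction of *SIR4* with *swc2Δ* was lost without any of 6 of 12 arrays, WT 1 and WT 3 among them (highest adjusted p = 0.093), and on deposited values it was -0.11.

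Direct comparisons of the SWR1-subunit mutants with *htz1Δ*, added after the data had been seen, use the same 3 *htz1Δ* arrays, without *BAR1*, as the comparisons of the double mutants, and their values are not independent of those. *RIF1* was higher by 0.88 in *swr1Δ*, 0.58 in *swc2Δ* and 0.51 in *swc5Δ* than in *htz1Δ* (adjusted p = 1.8e-06, 0.00012 and 0.00053). *SAS2* was higher by 0.41, 0.28 and 0.30, and *SAS4* lower by 0.22, 0.29 and 0.24, all called. The call of *SAS2* was lost in *swc2Δ* without *htz1Δ* 2 or *swc2Δ* 3 (highest adjusted p = 0.056) and in *swc5Δ* without *swc5Δ* 3 (0.06). On the values as deposited *RIF1* was called in all 3 (0.38, 0.91 and 0.64), but *SAS2* was at -0.07 and not called in *swr1Δ*, and *SAS4* was not called in *swc2Δ* (0.05) or *swc5Δ* (-0.01). In these comparisons 8, 5 and 5 members were called, against 43%, 41.2% and 34.9% of all probe sets. Among the SWR1-subunit mutants, 4 members differed between *swc2Δ* and *swr1Δ* (22% of all probe sets) and 3 between *swc5Δ* and *swr1Δ* (21.7%). *SIR4* was 0.41 and 0.35 higher in *swc2Δ* and *swc5Δ* than in *swr1Δ*, and *RIF1* 0.30 and 0.37 lower, the first of which was lost without *swr1Δ* 2 or 3 or *swc2Δ* 1 or 2 (highest adjusted p = 0.089). As deposited the differences of *RIF1* were 0.52 and 0.25, the other way, while those of *SIR4* kept their direction (1.21 and 1.06). Between double mutants *SIR2* was the 1 member called in *htz1Δ swc2Δ* against *htz1Δ swr1Δ* (20.9%), and *SIR2* and *SIR4* were the 2 called in *htz1Δ swc5Δ* against *htz1Δ swr1Δ* (18.3%).

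After rank mapping, genes whose products share a complex did not share a pattern over the strains. Across the 8 strain means, Pearson's r was -0.82 between *SAS2* and *SAS4*, 0.01 between *SAS2* and *SAS5*, and 0.45 between *SIR2* and *SIR4*. The strains share WT as background and 4 of them share *htz1Δ*, so these are descriptions. The most alike pair with *SAS2* was *RIF1* (r = 0.85), followed by *DOT1* (r = 0.84).

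The members lie on 7 chromosomes, 4 of them on chromosome IV (*SIR2*, *SIR4*, *SAS4* and *DOT1*), in the order of the RefSeq annotation. The nearest to a chromosome end are *SIR1*, the 6th gene from the end of chromosome XI, *SIR3*, the 22nd of chromosome XII, and *RIF1*, the 28th of chromosome II. Adjacent genes moved with the member in some cases and otherwise in others. *CHK1*, the DNA damage checkpoint kinase next to *RIF1*, was called higher in all 7 mutants, as *RIF1* was in all except *htz1Δ*. *CHK1* rose by 1.25 in *htz1Δ* (adjusted p = 1.3e-10), where *RIF1* was at -0.01, and by 0.54 in *swr1Δ*, where *RIF1* rose by 0.87. *STE4*, the G protein beta subunit of the pheromone pathway and a neighbour of *SAS5*, rose by 0.42 in *htz1Δ* (adjusted p = 7.5e-05) while *SAS5* fell. *PRP11*, a splicing factor gene next to *SIR2*, fell in all 7 mutants, by 0.20 in *htz1Δ swc2Δ* up to 0.49 in *swr1Δ*. *PCF11*, a 3'-end processing factor gene next to *SIR4*, rose in 6 of 7 mutants, *swc5Δ* being the exception (0.14, adjusted p = 0.082). The neighbours were not checked on the values as deposited or by leaving arrays out, so their changes in *swr1Δ*, *swc2Δ* and *swc5Δ* rest on the rank mapping.

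Of 72 further genes of silencing and telomere biology, in 11 lists, 69 were measured, and 35 (50.7%) were called in *htz1Δ*, 20 higher and 15 lower, close to the 51.1% of all probe sets. In *swr1Δ* 25 (36.2%) were called, in *swc2Δ* 22 (31.9%) and in *swc5Δ* 24 (34.8%), against 32.3%, 33.2% and 33% of all probe sets. The counts were 26 (37.7%) in *htz1Δ swr1Δ*, 21 (30.4%) in *htz1Δ swc2Δ* and 22 (31.9%) in *htz1Δ swc5Δ*, against 28.9%, 31.3% and 36.6% of all probe sets. In *htz1Δ swr1Δ* 8 were higher and 18 lower, and of all called probe sets 37.9% were higher there. The shares were near the background of each comparison, except in *htz1Δ swr1Δ*, where the share of these genes lay above it. This is a description, and no list was tested as a set. The other scalings and the leaving out of arrays were read for the 10 members only, not for these genes. Their changes in *swr1Δ*, *swc2Δ* and *swc5Δ* thus rest on the rank mapping alone.

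Of the 6 sirtuin relatives and Sum1 complex genes, 4 were called higher in *htz1Δ* and none lower. Of all probe sets, 24.2% were called higher there and 26.9% lower. *SUM1*, a repressor of middle sporulation genes that works with the deacetylase Hst1, rose by 0.78 (adjusted p = 3.5e-07), and in all 6 other mutants, by 0.36 in *htz1Δ swr1Δ* up to 0.92 in *htz1Δ swc5Δ*. *HST2*, *HST3* and *HST1* rose by 0.53, 0.32 and 0.21. Of the 7 silencer-binding factors, *ABF1*, a general regulatory factor, and *ORC2*, a subunit of the origin recognition complex, rose by 0.72 and 0.40, and *ORC3* fell by 0.22. Both *ABF1* and *ORC2* were also higher in the 6 other mutants.

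The 12 genes of telomere end binding and length had 9 called in *htz1Δ*, 4 higher and 5 lower, where 51.1% of all probe sets were called. *RIF2*, which encodes the partner of Rif1 in limiting telomere length, had means of 5.69 ± 0.19 in *htz1Δ* and 6.86 ± 0.16 in WT (SD, n = 3 each), and fell by 1.16 (adjusted p = 1.8e-05, limma). It was called in no other mutant, with changes between -0.40 and 0.08, and was 1.06, 0.76 and 0.83 higher than in *htz1Δ* in *htz1Δ swr1Δ*, *htz1Δ swc2Δ* and *htz1Δ swc5Δ* (adjusted p = 0.00012, 0.0019 and 0.0012). The *htz1Δ* strain, the 1 mutant in which *RIF1* was not called, also lacks *BAR1*. Against WT the losses of H2A.Z and *BAR1* cannot be told apart, nor can the SWR1 subunit and *BAR1* against the double mutants. In *htz1Δ swc2Δ*, where the call of *RIF1* was not firm, *RIF2* lay at 6.31 to 6.54, below all WT arrays (6.675 to 6.95). A link between the changes of *RIF1* and *RIF2* was not tested. *EST2*, the catalytic subunit of telomerase, rose by 0.71, *CDC13*, which binds the single-stranded end, rose by 0.63, and *TEN1*, which works with it, fell by 0.66. *EST2* was also higher in *swc2Δ* (0.84) and *swc5Δ* (0.66), but at 0.09 (adjusted p = 0.46) in *swr1Δ* and -0.06 (adjusted p = 0.67) in *htz1Δ swr1Δ*, and the difference of *htz1Δ swr1Δ* from *htz1Δ* was called (-0.76, adjusted p = 3.8e-06).

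The 12 genes of H2B ubiquitination and H3 lysine methylation had 8 called in *htz1Δ*, 3 higher and 5 lower, against 51.1% of all probe sets. *BRE2*, *SWD2* and *LGE1* fell by 0.73, 0.49 and 0.46, and *UBP10*, an ubiquitin protease that acts in telomeric silencing, rose by 0.59 and in each of the other mutants. The first 2 encode subunits of the complex that methylates histone H3, and Lge1 works with the ubiquitin ligase Bre1. Of the 4 boundary factors, *BDF1*, a bromodomain protein of SWR1 and TFIID, rose by 0.95 in *htz1Δ* (adjusted p = 8.1e-10) and by 0.66 to 0.92 in the 6 others, and *RPD3*, a histone deacetylase, fell by 0.24.

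Among the 6 genes of ribosomal DNA silencing and NAD supply, *PNC1* and *NPT1* rose by 0.68 and 0.15 in *htz1Δ*. *PNC1*, the nicotinamidase, was called in none of the 6 other mutants. Of the 4 Rap1 cofactors at ribosomal protein genes, *FHL1* fell by 0.42 and *GCR2* and *IFH1* rose by 0.32 and 0.27. Of the 8 other modifiers of telomeric silencing, *DOT6* rose by 0.61 and *ESC2* and *ZDS2* fell by 0.42 and 0.32. Of the 3 genes of telomere anchoring, *ESC1* rose by 0.25. None of the 4 histone chaperone genes linked to Sas2 was called in *htz1Δ* by limma (51.1% of all probe sets were), or had an unadjusted p under 0.05 there. *ASF1* rose by 0.44 in *htz1Δ swc2Δ* and 0.31 in *htz1Δ swc5Δ*, and *CAC2* fell by 0.22 in *htz1Δ swr1Δ*.

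**Figure D5:**
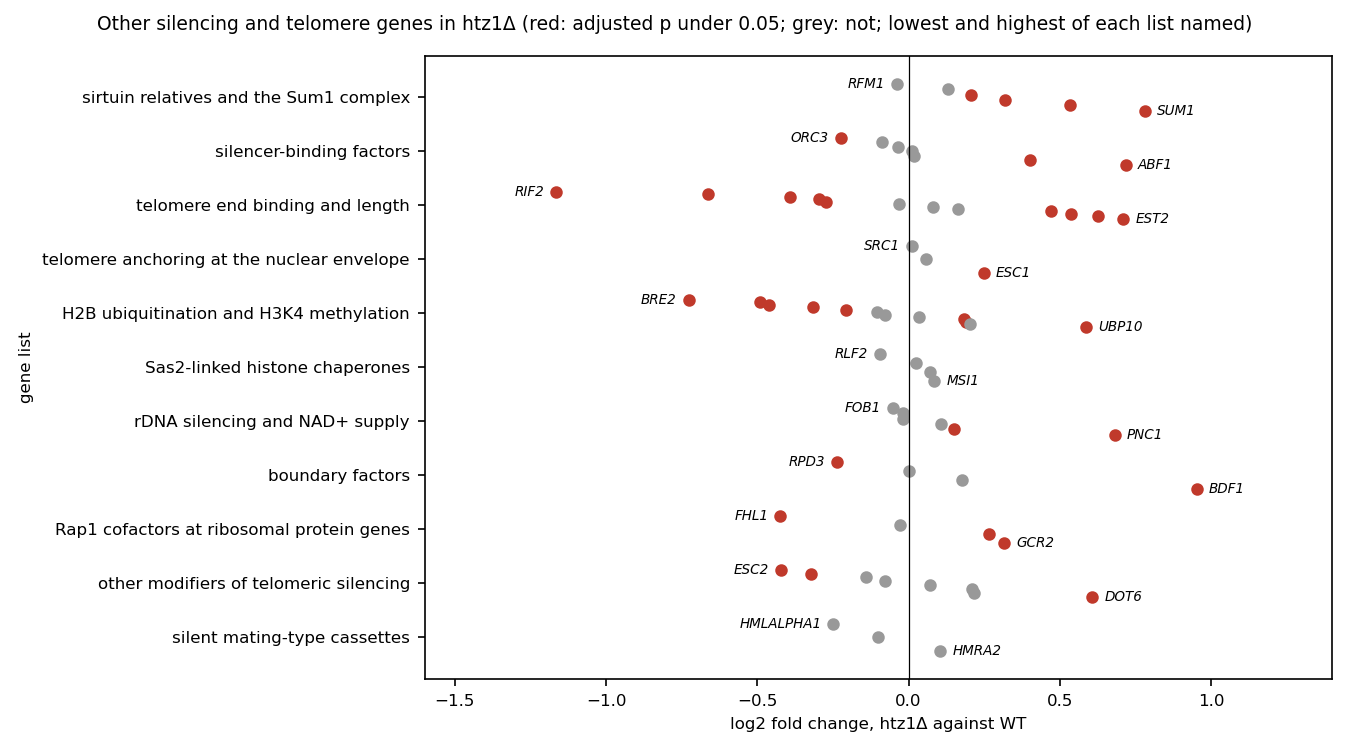
Log2 fold change in *htz1Δ* against WT (horizontal axis) of the 69 further genes, by list, in red where the adjusted p was under 0.05, with the lowest and highest gene of each list named. *RIF2* (-1.16) and *BDF1* (0.95) are the outermost, and most lists hold genes on both sides of 0.

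The silent cassettes themselves gave a limited readout. These *MATa* cells have the α1 sequence at the silent *HML* locus alone, and its probe set, named *HMLALPHA1* here and shared with *MATα1*, lay under the 95th percentile of the other-species probe sets on 24 of 24 arrays (2.69 to 3.82). It was called in no mutant, with changes between -0.34 and -0.03. The silent *HMR* cassette cannot be read in the same way, as *HMRA1* and *HMRA2* share their sequence with the active *MATa* locus. *HMRA1* averaged 9.68 ± 0.15 in *htz1Δ* and 9.78 ± 0.08 in WT (SD, n = 3 each) and was not called, and *HMRA2* rose by 0.35 in *swc2Δ*, 0.38 in *swc5Δ* and 0.32 in *htz1Δ swc2Δ*.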

How the data were processed

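RNA of 3 cultures from each of 8 strains was hybridised to Affymetrix Yeast Genome 2.0 arrays. The authors scanned the arrays with GCOS software, processed them by RMA and deposited log2 expression values, which are the values analysed. Which arrays were normalised together is not given in the sources used here. Of 10928 probe sets, the 5498 paired by the annotation with 1 gene were tested. The 9 *swr1Δ*, *swc2Δ* and *swc5Δ* arrays were given, rank for rank, the average values of the other 15 arrays. Strains were compared with limma 3.58.1 in R 4.3.3 (package data.table, version 1.17.8), with 1 mean per strain, moderated by eBayes (16 residual and 2.80 prior degrees of freedom), and p was Benjamini-Hochberg adjusted within a comparison. The script was tested on simulated data. No array repeated another. The median SD within a strain was 0.07 to 0.15, and with 3 arrays a strain their number limits the precision. The members, the lists and the rank mapping were chosen with earlier results of these data known. All members are named, and from each wider list up to 4 genes with the largest called changes in *htz1Δ*, or in another mutant where *htz1Δ* had none. The alternatives were the values as deposited, median centring, quantile normalisation, a filter on dim probe sets, a replicate block, only the 15 unmapped arrays and each array left out. Mapping over all probe sets and 7 comparisons were added after the data had been seen. Gene order along the chromosomes came from the RefSeq table, and no sequences were used.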

Additional observations from a re-analysis of the deposited data

Results flagged for a closer look

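In 8 cases the change with *htz1Δ* differed between cells with and without a SWR1 subunit, by the interaction test in limma (the difference of the change in the double mutant against its SWR1-subunit mutant from the change of *htz1Δ* against WT). *SIR4* differed by 0.56 with *swr1Δ* (adjusted p = 3.7e-05), 0.23 with *swc2Δ* (adjusted p = 0.031) and 0.45 with *swc5Δ* (adjusted p = 0.0002). *SAS5* differed by 0.55 with *swr1Δ* (adjusted p = 0.0051), 0.81 with *swc2Δ* (adjusted p = 0.00026) and 0.60 with *swc5Δ* (adjusted p = 0.0025). *RAP1* differed by -0.33 with *swr1Δ* (adjusted p = 0.034) and -0.32 with *swc5Δ* (adjusted p = 0.04). The first of these was not called after centring (-0.30, adjusted p = 0.055) or as deposited (0.12), and that of *SIR4* with *swc2Δ* was -0.11 as deposited and not called. The *htz1Δ* strain in these contrasts also lacks *BAR1*, the *htz1Δ swc5Δ* strain also carries *lys2Δ*, and the 9 arrays of the SWR1-subunit mutants are rank-mapped.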

How the results depend on the processing

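The scaling of the *swr1Δ*, *swc2Δ* and *swc5Δ* arrays mattered most. On the values as deposited all probe sets had a median change of -0.44 in *swr1Δ*, 0.32 in *swc2Δ* and 0.21 in *swc5Δ* against WT. Members called were then 1 higher and 8 lower in *swr1Δ* (3 and 3 with rank mapping), 8 higher and 1 lower in *swc2Δ* (3 and 2) and 6 higher and 1 lower in *swc5Δ* (2 and 2), that is 9 in *swc2Δ* and 7 in *swc5Δ*. As deposited, 80.7%, 67.3% and 56.5% of all tested probe sets were called in these 3 strains. Of all called probe sets 2.59% were then higher in *swr1Δ*, 94% in *swc2Δ* and 86.5% in *swc5Δ*, against 45.4%, 48% and 49.8% with rank mapping, and with quantile normalisation 50.1% in *htz1Δ swr1Δ* against 37.9%. The double mutants against their SWR1-subunit mutants had 8 (*swr1Δ*), 9 (*swc2Δ*) and 5 (*swc5Δ*) members called, where 85.1%, 74.7% and 49.8% of all probe sets were called. The interactions with *swr1Δ* and *swc2Δ* had 6 each, against 64.2% and 53.8% of all probe sets. Among the changes called with rank mapping, signs turned against WT for *SIR4* in *swc2Δ* (0.17) and *swc5Δ* (0.019), *SAS2* in *swr1Δ* (-0.22) and *RAP1* in *swr1Δ* (-0.10), and for the interactions of *SIR4* with *swc2Δ* (-0.11) and of *RAP1* with *swr1Δ* (0.12). In the added comparisons they turned for *SAS5* and *RIF1* in *swc2Δ* and *swc5Δ* against *swr1Δ*, for *SAS2* (-0.07) and *DOT1* (-0.22) in *swr1Δ* against *htz1Δ*, and for *SAS4* in *swc2Δ* against *htz1Δ* (0.05). Centring each array on its median gave 1 member called in *htz1Δ swr1Δ* against *swr1Δ* (*SIR4*, 0.20), where 4.91% of all probe sets were called. It also lost the interaction of *RAP1* with *swr1Δ* (-0.30, adjusted p = 0.055). Without the dimmest 25% of probe sets, which held *SIR1*, *SIR3* and *RIF1*, 3 were called in *htz1Δ swr1Δ* against *htz1Δ*, since those genes were not tested. Quantile normalisation and mapping over all probe sets moved none of the 16 counts by over 1.5 times, and the 15 unmapped arrays alone none of the 7 they give.

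The replicate numbers were not used in the main fit, although same-numbered arrays of different strains were somewhat more alike. The median correlation of deviations was 0.09 for same-numbered arrays (42 of 84 pairs over 0.1) and -0.04 otherwise (34 of 168 pairs over 0.1). With a replicate block all 55 called changes of members kept their direction and call, and *SIR2* was also called against WT in *htz1Δ swc2Δ* (0.23, adjusted p = 0.023) and *htz1Δ swc5Δ* (0.19, adjusted p = 0.047), and its interaction with *swc2Δ* was called (-0.28, adjusted p = 0.045).

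Leaving out each array in turn gave 2 to 4 members called in *htz1Δ*, 5 to 6 in *swr1Δ*, 3 to 5 in *swc2Δ*, 4 to 6 in *swc5Δ*, 3 to 4 in *htz1Δ swr1Δ*, 3 to 7 in *htz1Δ swc2Δ* and 3 to 5 in *htz1Δ swc5Δ* against WT. Against *htz1Δ* it gave 5 in *htz1Δ swr1Δ*, 1 to 4 in *htz1Δ swc2Δ* and 3 to 5 in *htz1Δ swc5Δ*. Against the SWR1-subunit mutants it gave 0, 0 and 0 to 1 (*swc5Δ*), and for the interactions 2 to 4 with *swr1Δ*, 1 to 2 with *swc2Δ* and 2 to 4 with *swc5Δ*. In *htz1Δ* the lowest count, 2, was without WT 2, in *swc2Δ* the lowest, 3, without *swc2Δ* 1, and in *htz1Δ swc2Δ* the highest, 7, without *htz1Δ swc2Δ* 3.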

Other observations

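A pair of further genes, chosen after their values were seen, fell in the strains without Swr1. *HST1*, the sirtuin most like Sir2, had means of 10.50 ± 0.08 in *swr1Δ* and 10.73 ± 0.10 in *htz1Δ swr1Δ*, against 11.34 ± 0.07 in WT (SD, n = 3 each). It fell by 0.84 in *swr1Δ* (adjusted p = 3.2e-07, limma) and by 0.62 in *htz1Δ swr1Δ* (adjusted p = 1.3e-05), and its changes in *swc2Δ* and *swc5Δ* were 0.11 and -0.13, not called. *BDF2*, the paralogue of *BDF1*, had means of 9.26 ± 0.08 in *swr1Δ* and 9.73 ± 0.27 in *htz1Δ swr1Δ*, against 10.56 ± 0.09 in WT (SD, n = 3 each). *BDF2* fell by 1.30 in *swr1Δ* (adjusted p = 9.6e-08) and by 0.83 in *htz1Δ swr1Δ* (adjusted p = 1.9e-05), and was 0.34 higher in *swc2Δ* (adjusted p = 0.028). *YKU70*, which encodes a subunit of the Ku heterodimer at chromosome ends and was also chosen after the fact, rose by 0.54 in *htz1Δ* (adjusted p = 0.0018), and was lower than in *htz1Δ* by 0.85, 0.61 and 0.70 in *htz1Δ swr1Δ*, *htz1Δ swc2Δ* and *htz1Δ swc5Δ* (adjusted p = 6.8e-05, 0.0013 and 0.0005). *YKU80*, which encodes the other subunit, fell by 0.39 in *htz1Δ* and was called lower in all mutants except *swr1Δ* and *htz1Δ swr1Δ*.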
